A study of Rattus norvegicus with 18 samples.

Results

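Hippocampal DNA methylation was compared directly between rats that had developed seizures in 2 models of temporal lobe epilepsy. The comparison took the 3 rats labelled KA_3ClassV, which received kainic acid, and the 4 rats labelled KI_3ClassV, which were kindled. These are 7 of the 18 rats of the series, and the rats of each group were taken by their labels. The comparison itself was chosen with earlier results of these data known. All 18 were adult male Sprague-Dawley rats of about 170 to 280 g. Kainic acid rats had electrodes implanted and then rising systemic doses of kainic acid until status epilepticus. Kindling rats had hippocampal electrodes and were stimulated 2 times a day until fully kindled. Both seizure groups are labelled 3 Class V, where class V is a fully generalised seizure, and tissue was taken 24 hours after the last seizure. The other 11 rats were shams, 7 of the kainic acid model and 4 of the kindling model, and the treatment of sham rats is not stated in the labels. DNA came from the left hippocampus with all its cell types, so a different mix of cells and a different level within cells cannot be told apart. The model, the cohort, the surgery and the handling also cannot be told apart in a direct comparison of the 2 seizure groups. The sham groups of both models are therefore given at the leading tiles and called cytosines.

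Methylation of a cytosine that is followed by a guanine (a CpG) is a mark that is copied when cells divide and that is low at the start sites of most active genes. Kainic acid excites glutamate receptors and provokes a prolonged seizure with loss of hippocampal neurons, whereas kindling builds up seizures by repeated brief stimulation with little loss of cells. Reduced representation bisulfite sequencing cuts DNA at CCGG with the enzyme MspI, converts unmethylated cytosines, and reads the share of molecules that stayed unconverted at each CpG near a cut. A level of 100% means that every read was unconverted, and differences of levels are given in percentage points, as kainic acid minus kindling. A cytosine changed to thymine in a chromosome copy is read like an unmethylated one, and genotypes were not examined here.

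The table held 2330883 cytosines, of which 2279082 (97.8%) were on the 20 autosomes. It gave fractions without read counts, so the depth behind a value is unknown and single values carry no interval. The mean autosomal level was 42.7% ± 0.0928 (SD, n = 3) in the kainic acid group and 42.6% ± 0.468 (SD, n = 4) in the kindling group. The difference of 0.0979 points was within the spread between rats (2-sided exact permutation test, p = 0.743; the smallest p that 3 against 4 rats allow is 0.0286). It was above 0 on 20 of 20 chromosomes, at 0.0568 to 0.135 points, and the smallest p of a chromosome was 0.543 by the same exact permutation test. Without kindling rat 2 or rat 4 its direction turned, to -0.0246 and -0.0442 points. Cytosines with a mean under 10% stood at 2.22% ± 0.142 (SD, n = 3) and 1.98% ± 0.747 (SD, n = 4), and those above 90% at 96.8% ± 0.0962 (SD, n = 3) and 96.9% ± 0.19 (SD, n = 4). The mean absolute difference between 2 rats over the tested tiles was 3.27 to 3.60 points within the kainic acid group, 2.93 to 5.0 within the kindling group and 3.11 to 4.62 between them. For 4 of the 7 rats the nearest other seizure rat was of the same model, so the 7 rats did not part by model. Kindling rat 4 was farthest from the others, at a mean of 4.50 points.

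No region separated the 2 seizure groups past the threshold. Cytosines were averaged in tiles of 1000 bp with 3 or more cytosines, and 82233 of 147493 autosomal tiles, those with a range of at least 5 points over the 18 rats, were tested with limma. A call required a p below 0.05 after Benjamini-Hochberg adjustment over all tiles. The fit called 0 tiles (0.00%), with a smallest adjusted p of 0.756. At an unadjusted p under 0.05 there were 3119 tiles (3.79% of those tested), 1473 higher and 1646 lower in kainic acid rats. The 3 and 4 rats did not overlap in 3924 tiles (4.77%). A difference of 10 points or more was seen in 863 tiles (1.05%) and of 20 points or more in 87. The median 95% confidence interval of a tile reached 4.37 points to either side, so smaller regional differences were not detectable in most tiles. The interval is not adjusted for the number of tests, and none of the 863 tiles with 10 points or more was called. A fit of the 7 seizure rats alone, with its own estimate of the spread, called 12 tiles, and the same fit with the replicate number as a block called 0. The count was 3 without kainic acid seizure rat 2. It was 1 without each of kainic acid seizure rat 1, kindling seizure rat 3 and kainic acid sham rat 4, and 0 without each other rat.

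The sham rats of the same 2 models were compared in the same fit. Between kainic acid sham and kindling sham rats the fit called 0 tiles (0.00%) with a smallest adjusted p of 0.202, and 5227 tiles (6.36%) had an unadjusted p under 0.05. Differences of 10 points or more were seen in 608 tiles (0.739%), and the 7 and 4 sham rats did not overlap in 720 (0.876%). Across the 82233 tiles the seizure difference and the sham difference had a Pearson r of -0.0333 and a Spearman rho of 0.00917. These 2 differences share no rat, but neighbouring tiles of a rat share its library. The test of the difference between them called 0 tiles (0.00%, smallest adjusted p 0.493), with 3928 (4.78%) at an unadjusted p under 0.05. The 2 sets of differences were thus nearly uncorrelated across tiles.

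**Figure D1:**
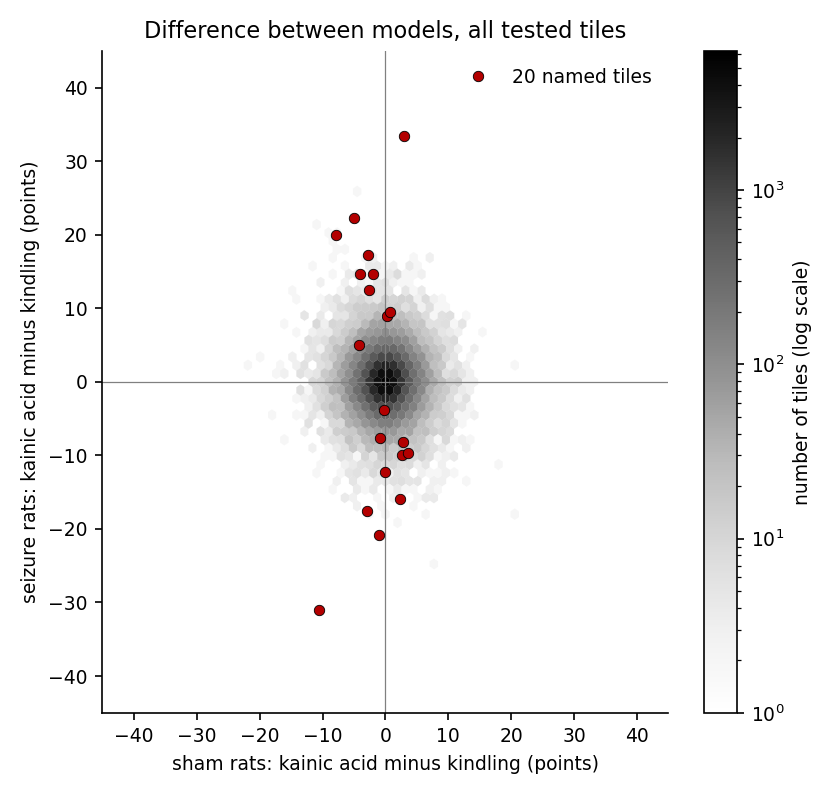
Difference between kainic acid and kindling rats in each of the 82233 tested tiles, in seizure rats (vertical axis) against sham rats (horizontal axis), both in percentage points; the shading counts tiles on a log scale and the red points are the 20 tiles of smallest p. The cloud is round, with a Pearson r of -0.0333. The red points reach 33.4 and -31.0 points in seizure rats, on which they were chosen. They lie nearer to 0 in sham rats, which follows in part from that choice.

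Since no tile was called, the 10 of smallest p in each direction are described as values and not as calls. Their unadjusted p ran from 3.76e-05 to 0.000556 in limma, and 9 of the 20 rested on 3 or 4 cytosines. Positions are those of build rn6, as the table gives them. Gene names come from RefSeq promoters placed on the table by their CpG spacing, so a gene nearer than those named may be missing.

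The largest difference of the 20 was at chr17:6896001-6897000, whose 4 cytosines lie 13 kb below the start of Hnrnpa0, an RNA-binding protein gene. Its level was 65.1%, 71.4% and 64.8% in the kainic acid seizure rats and 31.9%, 29.9%, 41.5% and 31.3% in the kindling seizure rats. The difference was 33.4 points (95% confidence interval to either side 14 points, unadjusted p = 8.74e-05, limma adjusted p = 0.756). Every kainic acid rat stood above every kindling rat, with a gap of more than 20 points. Kainic acid sham rats ranged from 33.7% to 61.0% with a median of 55.8%, and kindling sham rats were at 50.4%, 27.9%, 62.6% and 54.7%. Of the 11 sham rats 9 lay between the 2 seizure groups. Kainic acid sham rat 7 lay within the range of the kindling seizure rats, and kindling sham rat 2 lay below it. At the next tile of this stretch, chr17:6935001-6936000, the kainic acid seizure rats were at 74.5%, 82.2% and 75.3% and the kindling seizure rats at 62.1%, 62.8%, 57.9% and 57.6%. Its sham means were 68.3% in the kainic acid and 71.1% in the kindling model. Farther along, chr17:7559001-7560000 stood at 90.1% ± 0.725 (SD, n = 3) and 81.2% ± 1.66 (SD, n = 4), with both sham means at 88.3% and 88.1%, close to the kainic acid seizure rats.

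The tile of smallest p, chr18:16421001-16422000, was at 83.5%, 93.1% and 94.7% in kainic acid seizure rats and at 66.9% to 69.5% in the 4 kindling seizure rats. Its difference was 22.3 points (SE 4.11, unadjusted p = 3.76e-05, limma adjusted p = 0.756). In the kainic acid sham rats 6 of 7 values lay between 64.9% and 72.2%, near the kindling seizure rats, and rat 4 was at 89.5%. The kindling sham rats were at 79.0%, 72.3%, 78.8% and 81.3%, all between the 2 seizure groups. The tile chr18:15916001-15917000, 5.18 kb below the start of the zinc finger gene Zfp24, was at 87.8% ± 1.12 (SD, n = 3) against 75.3% ± 2.54 (SD, n = 4). Its sham means were 77.8% and 80.3%, nearer to the kindling seizure rats. At chr1:169239001-169240000 the kainic acid seizure rats were close together, at 92.3%, 92.6% and 93.3%, and the kindling seizure rats at 67.0%, 65.8%, 79.6% and 78.8%. The SD was 0.524 points among the kainic acid rats and 7.41 points among the kindling rats. Kainic acid sham rats were at 67.4% to 80.5%, and kindling sham rats at 87.9%, 81.0%, 80.4% and 93.7%, the last above every kainic acid seizure rat. At chr9:15698001-15699000, 52.1 kb above the start of the mitochondrial ribosomal protein gene Mrps10, the levels were 73.8%, 89.3% and 89.6% against 70.8%, 68.6%, 65.9% and 72.9%. Kainic acid rat 1 was there close to the kindling seizure rats and to the sham means of 71.2% and 73.1%.

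The tile chr1:100435001-100436000 differed in kind, because it is nearly unmethylated and lies 1.02 kb above a placed start, that of LOC108349570. Its level was 4.60%, 8.16% and 8.38% in kainic acid seizure rats and 0.901%, 1.32%, 2.67% and 3.33% in kindling seizure rats. The shams of this tile ran the opposite way, with 2.91% ± 1.33 (SD, n = 7) in kainic acid sham and 7.13% ± 1.25 (SD, n = 4) in kindling sham rats. The kindling sham mean was just above the kainic acid seizure mean of 7.05%, which made this tile the exception among the 20 in having a sham mean outside the span of the seizure means.

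Of the 10 named tiles lower in kainic acid rats, chr2:234901001-234902000 had the largest difference, -31.0 points (SE 5.86, unadjusted p = 4.96e-05, limma adjusted p = 0.756). The kainic acid seizure rats were at 64.0%, 59.4% and 63.0%, and the kindling seizure rats at 95.4%, 95.6%, 89.5% and 92.2%. Kindling sham rats, at 88.3% to 94.5%, overlapped the kindling seizure rats, whereas the kainic acid sham rats ran from 60.7% to 94.2% with a median of 86.2%. In a fit of the 7 seizure rats alone this tile had an adjusted p of 0.0126 and chr17:6896001-6897000 one of 0.0279 (limma). Near the start of cyclin E1 (Ccne1, 13.4 kb), chr1:94508001-94509000 was at 83.5%, 77.3% and 83.4% against 93.0% to 94.5%. The 11 sham rats there were at 84.7% to 92.7%, above every kainic acid seizure rat and below every kindling seizure rat.

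At chr9:16655001-16656000 all 10 cytosines were lower in kainic acid seizure rats, and the tile lies 7.04 kb below the start of Ptk7, a receptor-like gene of Wnt signalling, and 12.4 kb above that of Cul7, a scaffold of a ubiquitin ligase. Its level was 76.8%, 85.7% and 82.6% against 90.2%, 91.6%, 91.2% and 92.2%, a difference of -9.64 points (SE 1.93, unadjusted p = 9.19e-05, limma adjusted p = 0.756). Kainic acid sham rats, at 91.0% ± 2.03 (SD, n = 7), overlapped the kindling seizure rats, and the kindling sham rats, at 82.8%, 89.3%, 89.0% and 88.3%, were all below them. The tile chr1:85094001-85095000, 9.02 kb below the start of fibrillarin (Fbl, a methyltransferase of ribosomal RNA), was at 65.5% ± 2.01 (SD, n = 3) against 81.4% ± 0.974 (SD, n = 4). Its sham means were 73.8% and 71.5%, between the 2 seizure groups. At chr20:13202001-13203000, 46.3 kb above the start of the arginine methyltransferase gene Prmt2, the levels were 85.3%, 90.2% and 84.8% against 96.6% to 97.1%, with sham means of 94.5% and 91.9%. At chr10:16108001-16109000 they were 69.2%, 79.8% and 67.1% against 91.8% to 94.1%. The sham rats of that tile fell into 2 sets in both models, at 79.7% to 81.4% (4 kainic acid and 2 kindling sham rats) and at 91.3% to 94.8% (3 and 2 rats). The other tiles with higher levels in kainic acid rats differed by 9.43 points (chr2:22046001-22047000) and 14.6 points (chr16:12256001-12257000). Kainic acid and kindling sham means were 82.3% and 81.6% at the first and 78.3% and 82.4% at the second. The other tiles with lower levels differed by -3.84 points (chr1:40904001-40905000), -7.62 points (chr12:7688001-7689000), -8.13 points (chr1:169386001-169387000) and -17.5 points (chr12:12577001-12578000). In the same order the kainic acid and kindling sham means were 98.6% and 98.9%, 91.9% and 92.6%, 87.4% and 84.6%, and 92.5% and 95.5%, in each case between the 2 seizure means.

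**Figure D2:**
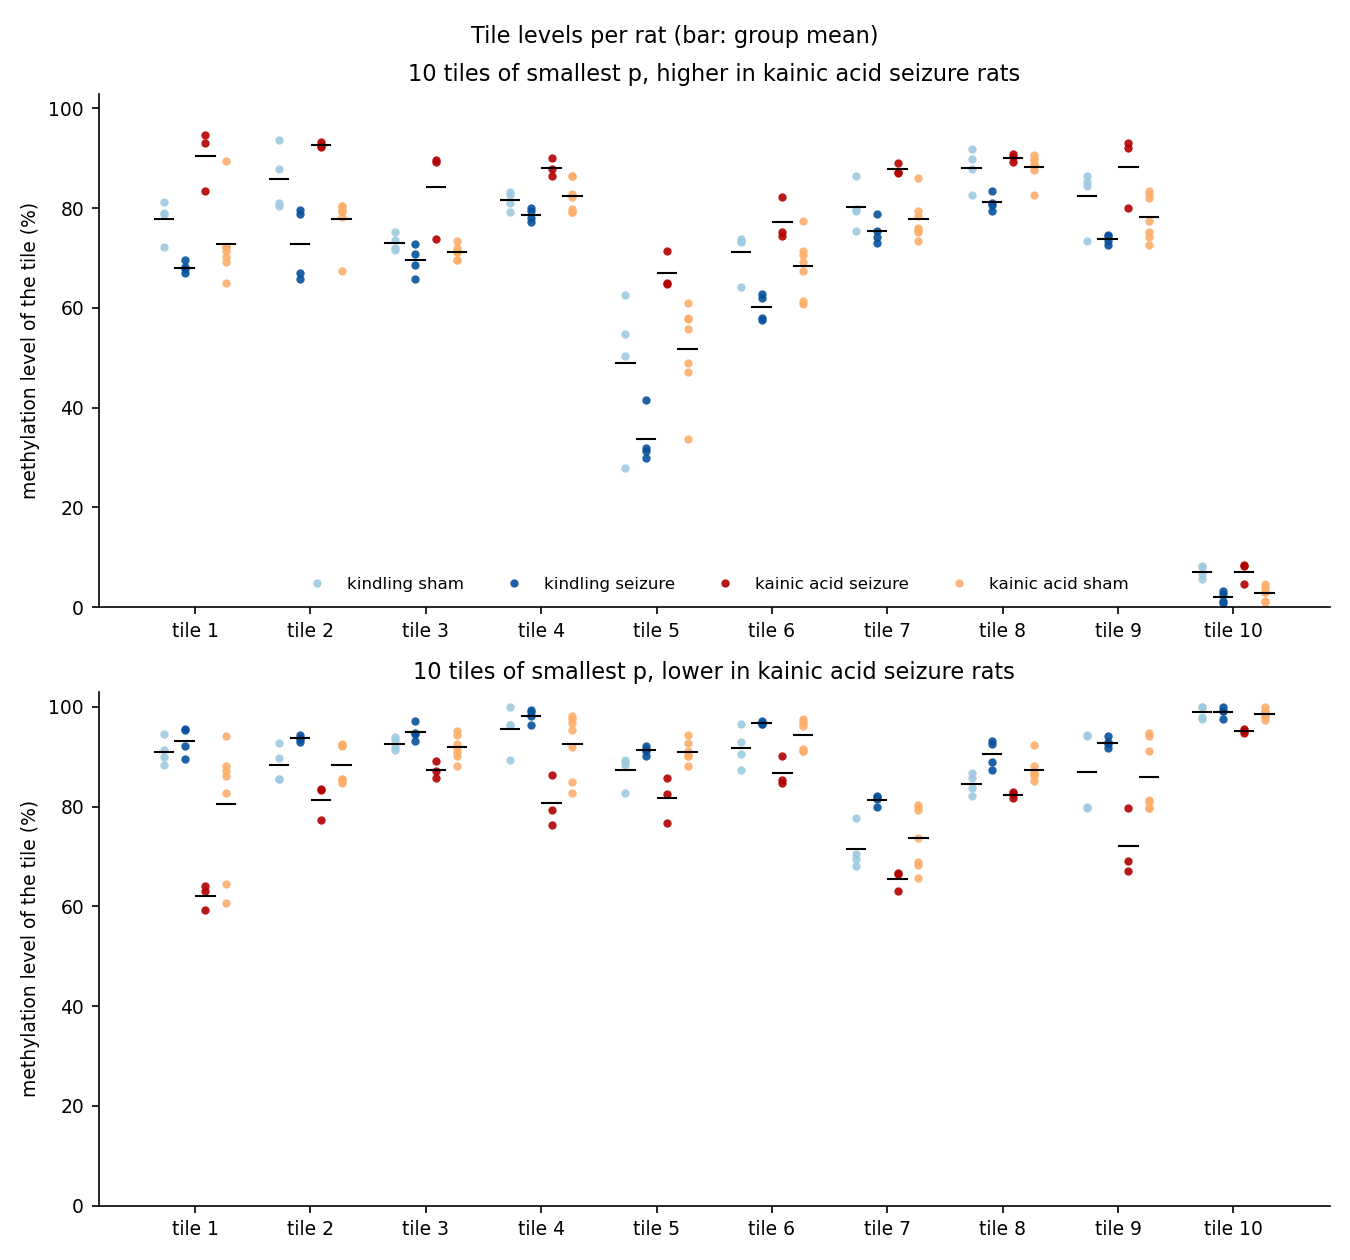
Methylation level (%) of the 20 tiles of smallest p, 10 higher (top) and 10 lower (bottom) in kainic acid seizure rats, each numbered by p; a point is 1 rat, a bar a group mean, and the colours give the 4 groups. The 2 seizure groups do not overlap in any of the 20 tiles, which were chosen on that difference, and in 19 the 2 sham means lie between them.

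The sham groups sat between the seizure groups at these tiles. Both sham means lay between the 2 seizure means in 19 of the 20 tiles (95%), in 91 of the 100 tiles of smallest p (91.0%) and in 14782 of all 82233 tested tiles (18%). A tile with a large gap between the seizure means leaves more room between them, so these shares follow in part from the choice of tiles. The sham difference had the same sign as the seizure difference in 9 of the 20 tiles, in 53 of the 100 and in 41435 (50.4%) of all. Of the 220 values of sham rats at the 20 tiles, 30 fell within the kainic acid seizure range and 64 within the kindling seizure range. Both sham means were nearer to the kindling seizure mean in 12 of the 20 tiles and to the kainic acid seizure mean in 1. Each sham mean was nearer to the seizure group of its own model in 1 and of the other model in 6. Over all 82233 tiles these counts were 25079, 26576, 15572 and 15006 in the same order. The 20 tiles were chosen on the seizure rats, and the 2 seizure ranges rest on 3 and 4 rats. The part of this choice in the counts was not tested.

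Tiles were also chosen the other way, on the sham rats. Of the 82233 tested tiles, 673 were higher and 619 lower in kainic acid sham rats at an unadjusted p under 0.01 in limma. The mean of the first minus the mean of the second was 4.33 to 6.47 points in the 7 kainic acid sham rats and -9.83 to -7.04 points in the 4 kindling sham rats, which is how the tiles were chosen. The seizure rats entered the choice through the shared variance and the range filter alone. In them it was -0.457, 0.887 and 0.905 points in kainic acid rats and -0.551, -0.474, 1.33 and 2.58 points in kindling rats. The 2 seizure groups overlapped and lay between the 2 sham groups. Tiles picked for a large sham difference tend to leave other rats between the sham groups, so that place follows in part from the choice.

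**Figure D3:**
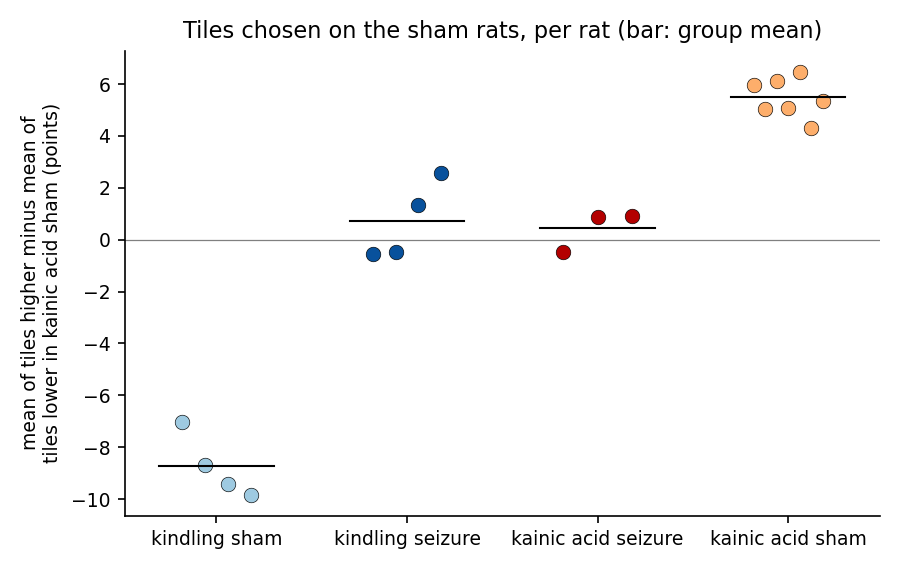
Mean level of 673 tiles higher in kainic acid sham rats minus that of 619 tiles lower in them, in percentage points, for each of the 18 rats, with bars for group means. The sham groups are apart because the tiles were chosen on them, while the 4 kindling and 3 kainic acid seizure rats overlap between -0.551 and 2.58 points.

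Most of the leading tiles rested on a single CpG. When the CpG of largest difference was left out, which lowers a difference by construction, 14 of the 20 tiles kept under 50% of their difference, 7 in each direction. In those 14 that CpG alone differed by 27.6 to 84.7 points. At chr2:234901001-234902000 it was at 0% to 17% in kainic acid seizure rats and 84.8% to 98.9% in kindling seizure rats, and the other CpGs of the tile differed by -4.22 points. At chr1:169239001-169240000 the tile difference without it was 0.164 points, and at chr16:12256001-12257000 it was 0.221 points. The sign turned in 2 tiles, to -3.62 points at chr17:6935001-6936000 and to 0.532 points at chr10:16108001-16109000. The other 6 tiles kept 70.1% to 98.8% of their difference. They were chr17:6896001-6897000 (33.0 points left), chr12:7688001-7689000 (-7.34), chr9:16655001-16656000 (-8.20), chr2:22046001-22047000 (6.61), chr1:100435001-100436000 (3.68) and chr1:40904001-40905000 (-2.99). In these 6 the difference was shared by the measured CpGs of the tile.

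Some leading tiles lay close together. Of the 100 tiles of smallest p, 42 fell in 16 groups of 2 or more tiles linked at 1 Mb, and no background was computed for this count. The 8 groups of 3 or more held 26 tiles, and 4 of these groups held tiles of both directions. The chr17 stretch of 664 kb held 3 tiles, all higher in kainic acid rats, and a stretch of 384 kb on chromosome 1 that ends at the tile near Fbl held 4, all lower. A stretch of 1140 kb on chromosome 20 held 4 more that were lower. Tiles of a stretch may not be separate observations.

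At single cytosines 4 passed the threshold, 2 higher and 2 lower in kainic acid seizure rats. They were called among 772656 cytosines with a range of at least 10 points (0.000518%), with 29873 (3.87%) at an unadjusted p under 0.05. The 2 groups did not overlap at 38154 cytosines (4.94%), and 2364 (0.306%) differed by over 30 points. The first pair are the 2 strands of 1 CpG at chromosome 9, positions 16510571 and 16510572, which therefore count as 1 site. On the plus strand the level was 44.6%, 57.7% and 48.1% in kainic acid seizure rats and 1.34%, 0.556%, 0.719% and 0.699% in kindling seizure rats. The difference was 49.3 points (SE 4.56, limma adjusted p = 0.000696). On the minus strand it was 36.5%, 42.3% and 42.1% against 0.524% in kindling rat 2 and 0% in the other 3, a difference of 40.2 points (SE 4.82, limma adjusted p = 0.0164). All 7 kainic acid sham rats were at 0% to 1.16% on the plus strand, and of the kindling sham rats 3 were at 0.538% to 3.12% and rat 1 at 27.5%. The site was thus near 0 in 14 of the 15 other rats and at the middle of the scale in the 3 kainic acid seizure rats. Its 26 neighbours within 500 bp differed by -2.43 to 4.30 points, with means of 94.3% and 93.8%, so the site stands alone in a methylated stretch. The nearest placed starts are Tbcc, a tubulin folding cofactor, at 104 kb below, and Mea1 at 102 kb above.

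The other 2 called cytosines are on chromosome 16 and had the opposite form. At position 20988231 the kainic acid seizure rats were at 49.2%, 44.7% and 41.2% and the kindling seizure rats at 95.7%, 93.6%, 100% and 96.3%. This is a difference of -51.4 points (SE 5.20, limma adjusted p = 0.00161). Here the shams of the 2 models did not overlap, with 79.5% to 93.2% in kainic acid sham rats and 65.5%, 45%, 55% and 73.3% in kindling sham rats. Their difference did not pass the threshold (limma adjusted p = 0.175). At position 20849983 the levels were 50%, 41.1% and 56.1% against 97.4%, 98.6%, 96.0% and 92.3%, a difference of -47.0 points (SE 5.90, limma adjusted p = 0.0251). Kainic acid sham rats were all at 94.6% to 98.4% there, while kindling sham rats were at 62.0%, 94.1%, 58.3% and 60.0%. This sham difference did not pass either (limma adjusted p = 0.196). At both positions the kainic acid seizure rats and the kindling sham rats, except rat 2 at the second, were below every rat of the other 2 groups. The neighbours within 500 bp differed by -16 to 14.5 points around the first (20 cytosines) and by -2.53 and -0.963 points around the second (2 cytosines). The first lies between the placed starts of Slc25a42, a mitochondrial carrier of coenzyme A, at 26 kb, and Mef2b, a transcription factor, at 28.9 kb. The second lies 25.1 kb from the start of Upf1, a helicase of nonsense-mediated decay, and 10.8 kb from that of Cers1, a ceramide synthase. The 2 positions lie within 500 kb of each other and may not be separate observations. Within 500 kb of position 20988231, 20 of 1685 tested cytosines (1.19%) differed by over 30 points, 10 higher and 10 lower, beside 0.306% of all. Around the chromosome 9 site it was 4 of 761 (0.526%). Both windows were placed around called cytosines, which themselves differ by over 30 points, so these shares follow in part from that choice. The part of the choice was not tested. The plus strand of the second CpG, position 20849982, differed by -46.5 points with a limma adjusted p of 0.197. The gap between models differed between seizure and sham rats at 5 cytosines (0.000647% of those tested, limma adjusted p under 0.05), which are the 4 called ones and this one.

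**Figure D4:**
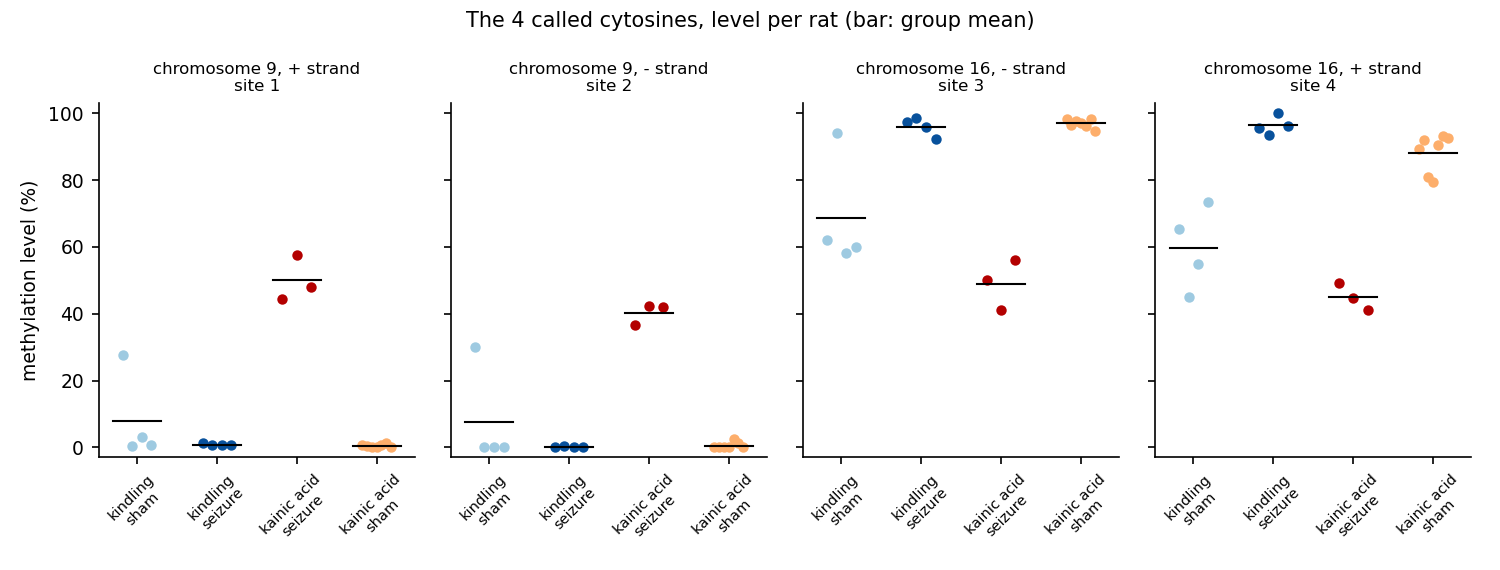
Methylation level (%) of the 4 called cytosines in each of the 18 rats, with bars for group means. Sites 1 and 2 are the 2 strands of the CpG at chromosome 9 position 16510571, and sites 3 and 4 are chromosome 16 positions 20849983 and 20988231; the 3 kainic acid seizure rats lie at 36.5% to 57.7% in all 4 panels.

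These calls depended on the set of rats, on the range filter and on the scale. The count was 23 without kainic acid seizure rat 1, 41 without rat 2 and 3 without rat 3. It was 2 without kindling seizure rat 1 or rat 2, 8 without rat 3, 9 without rat 4 and 7 without kindling sham rat 2. With the 7 seizure rats alone it was 132, and with no filter on the range it was 110. On the log2 odds scale 1 cytosine was called, and with strands averaged 2 CpGs were called. The call at chromosome 16 position 20849983 was lost in 14 of 28 alternatives, and those at 16510572, 16510571 and 20988231 in 5, 2 and 1. With the replicate number as a block none of the 4 was called, with limma adjusted p values of 0.0518 to 0.168, and 2 other cytosines were. The direction of the 4 cytosines was kept in every alternative run. Since the 2 seizure groups did not overlap at these cytosines, leaving out 1 rat could not have turned it.

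Further sites, named after their values were seen, showed large gaps without passing the threshold. The CpG at chromosome 16 position 21343201 was at 72.2%, 52.2% and 46% in kainic acid seizure rats and at 3.03% to 10.5% in kindling seizure rats (limma adjusted p = 0.149). Kainic acid sham rats were there at 5.88% to 26.7% and kindling sham rats at 4.76% to 39.1%. At chromosome 9 position 16660861 the levels were 12.5%, 31.1% and 31.6% against 0% to 2.27% (limma adjusted p = 0.197), and of the 11 sham rats 9 were at 0%, with 9.30% and 8.33% in the others. The largest gap of these was at chromosome 1 position 243588638, with 8.43%, 23% and 8.09% against 94.1% to 98.2%, a difference of -83.1 points (limma adjusted p = 0.197). Kainic acid sham rat 2 was also low there, at 17.3%, the other 6 were at 79.4% to 100%, and kindling sham rats were at 83.3% to 100%.

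At promoters no difference passed the threshold either, and the small ones that stood out lay mostly on 1 side. Promoter windows of 300 bases were placed for 6406 genes. The fit called 0 of them (0.00%, smallest adjusted p 0.152), and the groups did not overlap in 165 (2.58%). Unadjusted p fell under 0.05 in 155 (2.42%), of which 143 (2.23%) were higher and 12 lower in kainic acid seizure rats. Over all 6406 the median difference was 0.186 points, and 68.3% were above 0. The mean level of cytosines under 10% was 2.22% against 1.98%, within the spread between rats (2-sided exact permutation test, unadjusted p = 0.629). The share of cytosines at exactly 0 was 8.91%, 9.24% and 12.4% in kainic acid and 8.83%, 13.8%, 10% and 20.6% in kindling seizure rats. These shares overlapped too (same test, unadjusted p = 0.457). Kindling rats 2 and 4 had both the most zeros of the kindling seizure rats and the lowest levels of the class under 10% (1.52% and 1.23%). Kindling rats 1 and 3 were at 2.28% and 2.88% in that class, and the kainic acid seizure rats at 2.12% to 2.38%. The part of these measures in the split was not tested. CpGs inside CCGG, the cut site of MspI, stood apart from all others in these windows. Their mean level was 97.1% in kainic acid and 97.3% in kindling seizure rats, and 98.6% of their 16366 cytosines were above 90%. The 197833 other cytosines averaged 2.70% and 2.46%, and 98.3% of them were under 10%. A CpG at a cut site lies at the end of a fragment, and ends are made blunt in library preparation. The part of that step was not tested. Cytosines in CCGG were not left out of the tiles, mean levels, level classes or single cytosines given above. Without the CCGG cytosines the limma fit called 0 promoters, at a smallest adjusted p of 0.0796, and 155 of the 170 at unadjusted p under 0.05 were higher.

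The upstream sequences of the 2 promoters of smallest p and of the one with the largest difference are shown because each carries its difference over many CpGs. They are the 250 bases before the start site from RefSeq (GRCr8), 5′ to 3′ on the strand of the gene, with the CpGs measured in these rats in capitals.
Plaat1: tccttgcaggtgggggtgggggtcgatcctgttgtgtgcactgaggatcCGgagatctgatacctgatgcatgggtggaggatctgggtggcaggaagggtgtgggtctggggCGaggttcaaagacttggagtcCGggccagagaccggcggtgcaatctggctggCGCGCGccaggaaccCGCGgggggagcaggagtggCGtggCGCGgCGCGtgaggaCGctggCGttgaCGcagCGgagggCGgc
Tle5: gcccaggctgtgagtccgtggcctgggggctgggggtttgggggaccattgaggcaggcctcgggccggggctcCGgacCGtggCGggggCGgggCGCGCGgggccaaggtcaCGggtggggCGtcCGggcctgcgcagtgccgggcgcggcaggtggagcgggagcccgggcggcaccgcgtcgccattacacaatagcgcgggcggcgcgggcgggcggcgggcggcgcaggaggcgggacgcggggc
Pabpc4: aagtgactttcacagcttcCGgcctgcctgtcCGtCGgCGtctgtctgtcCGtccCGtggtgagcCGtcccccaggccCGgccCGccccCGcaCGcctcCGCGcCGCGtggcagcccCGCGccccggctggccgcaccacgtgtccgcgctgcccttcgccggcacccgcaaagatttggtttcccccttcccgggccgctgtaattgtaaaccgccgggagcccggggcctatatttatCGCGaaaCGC

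Plaat1 encodes a phospholipase and acyltransferase of membrane lipids, and its promoter lies on chromosome 11 with measured CpGs at 75144863 to 75145104. Its mean over 39 cytosines was 13.6%, 14.2% and 13.2% in kainic acid seizure rats and 10.9%, 9.36%, 8.93% and 10.3% in kindling seizure rats. The difference was 3.81 points (SE 0.685, unadjusted p = 2.37e-05, limma adjusted p = 0.152). Without each seizure rat in turn it stayed between 3.50 and 4.17 points. Kainic acid sham rats were at 9.48% to 12.7% and kindling sham rats at 9.02% to 10.8%, below every kainic acid seizure rat. The 2 CpGs in CCGG were at 96.9% to 98.9% in all 4 groups, and the other CpGs stood at 6.64% ± 0.580 (SD, n = 3) against 2.49% ± 0.929 (SD, n = 4). Of those 18 CpGs 16 were higher in kainic acid rats, so the difference ran through most capitals of the sequence. Reads of 110 bases can cover many CpGs on 1 molecule, so CpGs here and at the promoters below are not separate observations. The tile of 1000 bp that holds most of the 18 CpGs differed by 0.343 points over 52 cytosines (limma unadjusted p = 0.828).

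Tle5, a small member of the Groucho family of transcriptional corepressors, had 10 measured CpGs on chromosome 7 between 11019928 and 11019981, all in the upstream part. Its mean was 15.3%, 16% and 15.7% against 13.6%, 12.1%, 11.6% and 11.9%, a difference of 3.38 points (SE 0.679, unadjusted p = 8.73e-05, limma adjusted p = 0.280). Outside CCGG it was 4.57% ± 0.358 (SD, n = 3) against 1.03% ± 0.836 (SD, n = 4), with 1.23% ± 0.754 (SD, n = 7) in kainic acid sham and 1.79% ± 1.48 (SD, n = 4) in kindling sham rats. The kainic acid seizure rats were thus apart from the other 3 groups at a level of a few percent.

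Pabpc4, a cytoplasmic protein that binds the poly(A) tails of messenger RNAs, had the largest promoter difference, 11.6 points over 29 cytosines (SE 3.64, unadjusted p = 0.00489, limma adjusted p = 0.999). Its level was 28.4%, 19.7% and 25.8% in kainic acid seizure rats and 17.1%, 16.8%, 8.12% and 10.1% in kindling seizure rats. Without each seizure rat in turn the difference was 9.75 to 14.1 points. Kindling sham rats were close together at 16.5% to 20.3%, and kainic acid sham rats fell into 3 rats at 7.34% to 8.76% and 4 at 16.5% to 24.5%. The kainic acid sham rats thus spanned a wider range than the difference between the seizure groups. These levels count the CpGs in CCGG, without which the seizure means were 19.3% in kainic acid and 6.78% in kindling rats. Of 23 measured CpGs, at chromosome 5 between 140979204 and 140979458, 21 were higher in kainic acid rats and 14 by 10 points or more. The 6 CpGs farthest upstream outside CCGG differed by 1.03 to 2.38 points, and those nearer to the start by 8.23 to 22.1 points.

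**Figure D5:**
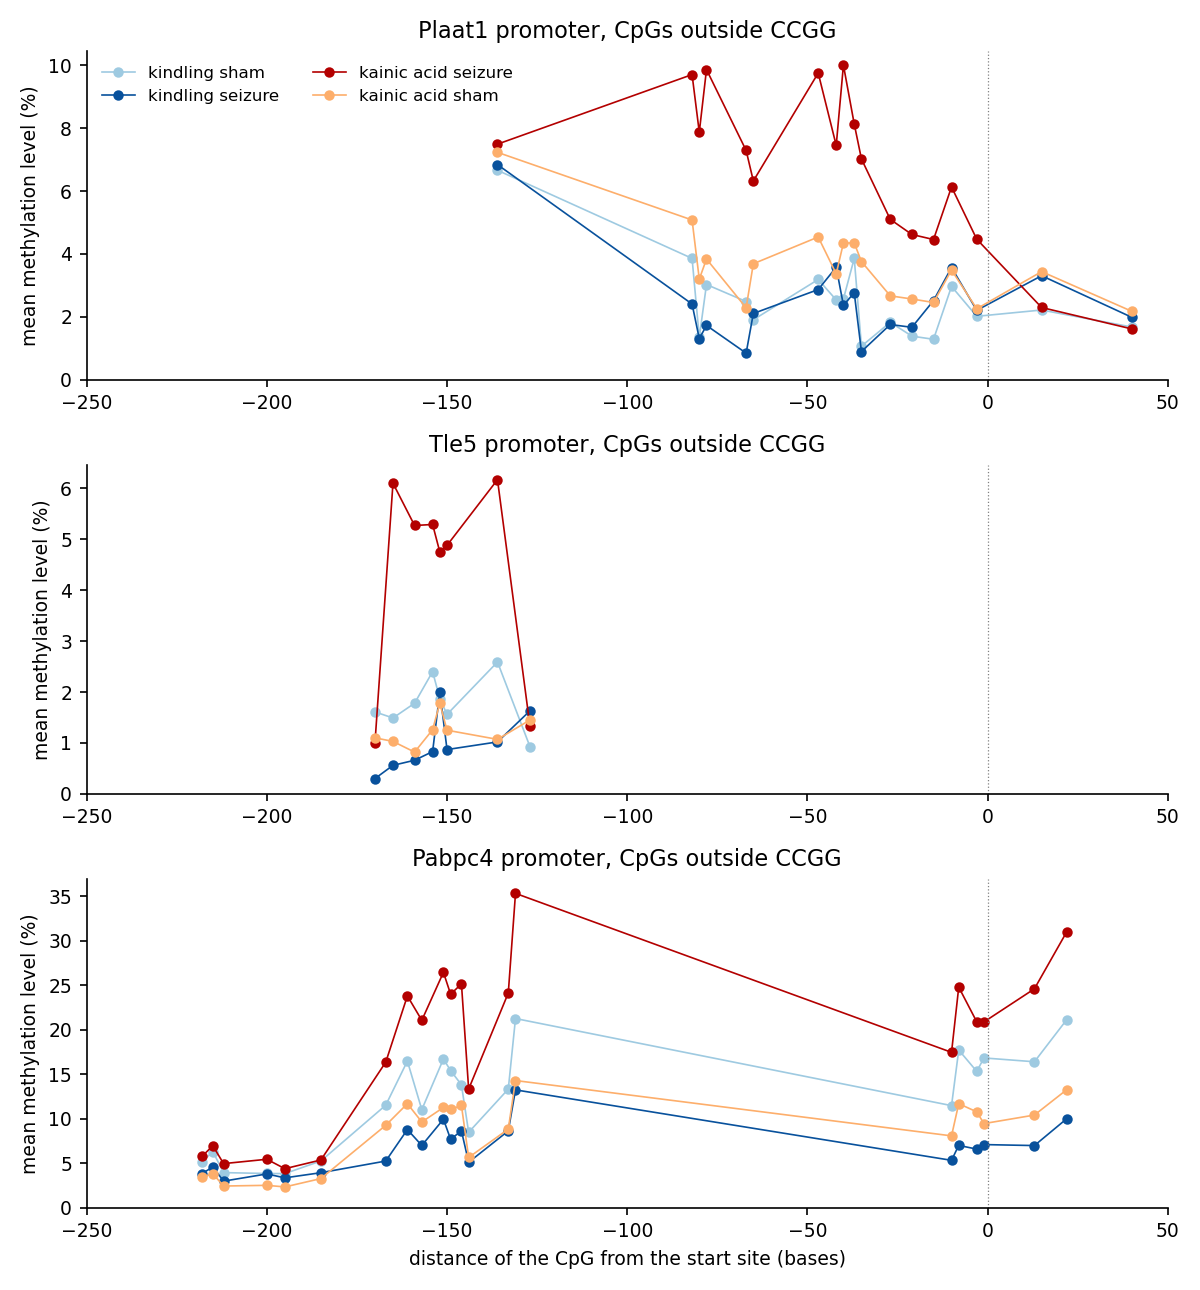
Mean methylation level (%) at each measured CpG outside CCGG of the Plaat1, Tle5 and Pabpc4 promoters, against its distance in bases from the start site (dotted line), with 1 line for each of the 4 groups and a different scale in each panel. Kainic acid seizure rats lie above the other groups over most CpGs, up to 9.999% at Plaat1, 6.17% at Tle5 and 35.3% at Pabpc4.

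The other 8 of the 10 promoters of smallest p were those of Tram1l1, Megf6, Erc2, Ppp1r16b, Emc10, Nbea, Tmub2 and Dmtf1. All 8 were higher in kainic acid seizure rats, by 1.28 to 2.55 points, with a limma adjusted p of 0.999. The highest and lowest of these differences were at Ppp1r16b, a regulatory subunit of protein phosphatase 1 (3.24% ± 2.12, SD, n = 3, against 0.686% ± 0.248, SD, n = 4), and at Tram1l1 (6.06% ± 0.470, SD, n = 3, against 4.78% ± 0.475, SD, n = 4). The Tram1l1 levels count CpGs in CCGG, without which they were 2.43% against 1.17%. Of the 5 promoters with a difference of at least 5 points, LOC134485887 (6.27 points), LOC102548488 (5.51), RT1-CE5 (-5.85) and Chtopl1 (-5.63) each moved by more than 1.5 times when 1 seizure rat was left out. The lowest and highest values without 1 rat were 3.94 and 10.5 points for LOC134485887, 2.51 and 9.83 for LOC102548488, -7.98 and 0.164 for RT1-CE5, and -8.28 and -1.67 for Chtopl1.

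The lists of genes that bear on epilepsy held no called promoter. Of 208 genes in 13 lists 53 had a placed promoter, 0 were called and 1 had an unadjusted p under 0.05, beside 2.42% of all placed promoters. The median difference of the 53 was 0.194 points, beside 0.186 points over all. All levels and differences of list genes, here and below, are over every measured cytosine of a window, those in CCGG included. Of 22 genes of GABA synthesis, transport and reception, the main inhibitory system, 8 were placed, with differences of 0.0827 to 0.492 points. Among them were the vesicular transporter Slc32a1 (5.99% against 5.53%) and the receptor subunit Gabra5 (6.37% against 5.88%). Of 18 ionotropic glutamate receptor genes 2 were placed, Gria4 (8.93% against 8.86%) and Grik3 (12.0% against 12.2%), the second a kainate receptor subunit. Of 25 ion channel genes 5 were placed, at -0.665 to 0.105 points.

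Genes that neuronal activity switches on were the list with most placed members, 13 of 30. Their differences ran from -0.308 to 1.57 points with a median of 0.244. The widest was at the transcription factor Egr1 (31.0% ± 0.497, SD, n = 3, against 29.4% ± 1.78, SD, n = 4), and the neurotrophin Bdnf was at 8.50% against 7.69%. Neither had an unadjusted p under 0.05 in limma. Of 18 genes of the methylation machinery 8 were placed, at -0.214 to 0.639 points, among them the demethylase genes Tet2 (0.291% against 0.505%) and Tet3 (1.07% against 1.20%). Of 22 genes of inflammation and glial reaction 5 were placed, at -0.296 to 0.426 points.

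The promoter with an unadjusted p under 0.05 was that of Inpp5f, a phosphoinositide phosphatase in the list of imprinted genes. It was at 2.87% ± 0.697 (SD, n = 3) against 1.58% ± 0.862 (SD, n = 4), a difference of 1.29 points (limma unadjusted p = 0.0380, adjusted p = 0.999), and the 2 groups overlapped. Of 22 imprinted genes 8 were placed. Of the marker genes of brain cell types 4 had a placed promoter, the neuronal Tubb3 and Pvalb, the astrocyte Slc1a2 and the oligodendrocyte lineage Cspg4, and none of the microglia or vessel lists. Their differences were -0.0838, 0.390, 0.452 and 2.23 points, none with an unadjusted p under 0.05 in limma. The mix of cells in the 2 groups could therefore not be checked from these promoters.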

How the data were processed

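DNA methylation of 18 rats was taken from a table that the authors deposited, with a fraction (beta value, 0 to 1) for each cytosine and rat and no coverage. Build rn6 and the tools Bismark, Bowtie2, methylKit, Trim Galore and FastQC come from the submitters' processing notes, and versions, coverage minimum and filters are not stated there. Each column was matched to its rat through the library name, and replicates are separate rats per the labels. The depth per rat is unknown.

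Fractions were multiplied to percent. Autosomal tiles of 1000 bp with 3 or more cytosines and a range of at least 5 points, and cytosines with a range of at least 10 points, were tested with limma 3.58.1 (R 4.3.3) on the fraction scale. One fit over all 4 groups left 14 residual degrees of freedom, and the prior variance was allowed to trend with the mean level. Contrasts were seizure rats, sham rats and their difference, called below 0.05 after Benjamini-Hochberg adjustment over every unit tested. The fit was tested on simulated data. Mean levels were compared by exact permutation over 35 arrangements. Figures used Python 3.11.15 and matplotlib 3.10.9.

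Named were called tiles or, with under 5 in a direction, the 10 of smallest p, and called cytosines. The comparison and the gene lists were chosen with earlier results of these data known. Replicate numbers did not pair the rats (correlations of deviations 0.113, -0.152 and -0.0281).

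The rule for names was to give positions only, since no rn6 annotation was at hand. Gene names were added after the data were seen. RefSeq promoter sequences (GRCr8, 250 bases before to 50 after the start) were slid along the table's own CpG positions and kept at 1 best position with at least 7 CpGs matched, at least 90% of the measured CpGs in the window matched, and the chromosome that RefSeq names. Of 7059 placed, 6998 (99.1%) were on that chromosome, and 99.5% of 6974 neighbouring pairs were in the same order. All placed promoters, 1 per gene, were tested with no range filter, and the 10 of smallest p, those with a difference of at least 5 points and list members were examined.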

Additional observations from a re-analysis of the deposited data

Results flagged for a closer look

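Single rats stood far from the rest of their group in 12 of 84 groups examined at the named tiles, cytosines and level classes. Chance gives about 1 in 20 for separate groups that were not picked. Here the tiles and cytosines were picked on the same rats, and 2 of the cytosines are strands of 1 CpG. The count can therefore not be set against that rate. At chr18:16421001 kainic acid sham rat 4 was at 89.5% and the others at 64.9% to 72.2%. At chr1:169239001 kainic acid sham rat 6 was at 67.4% and the others at 78.2% to 80.5%, and at chr1:169386001 the same rat was at 92.3% and the others at 85.1% to 88.1%. At chr17:7559001 kainic acid sham rat 7 was at 82.7% and the others at 87.6% to 90.7%. At chr17:6896001 kindling seizure rat 3 was at 41.5% and the others at 29.9% to 31.9%. Kindling sham rat 2 was at 64.1% at chr17:6935001 (others 73.2% to 73.8%), at 73.5% at chr16:12256001 (others 84.4% to 86.4%) and at 94.1% at the cytosine 20849983 of chromosome 16 (others 58.3% to 62.0%). Kindling sham rat 1 was at 82.8% at chr9:16655001 (others 88.3% to 89.3%), at 27.5% at the cytosine 16510571 of chromosome 9 (others 0.538% to 3.12%) and at 29.9% at 16510572 (others 0%). At that last cytosine kindling seizure rat 2 was at 0.524% and the other 3 at 0%, a flag of little size.

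The difference between models itself differed between seizure and sham rats at 5 cytosines (limma adjusted p under 0.05, 0.000647% of those tested). Seizure minus sham, it was -79.9 points at chromosome 16 position 20988231 (adjusted p 0.000136), -75.4 at 20849983 (0.00159) and -76.8 at 20849982 (0.0132). It was 56.8 points at chromosome 9 position 16510571 (0.00159) and 47.1 at 16510572 (0.0446). They are 3 CpGs, and 4 of the 5 cytosines are those called between the seizure rats.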

How the results depend on the processing

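Called tiles between seizure rats numbered 0 in the main fit, 12 with the 7 seizure rats alone, 1 with the replicate block and 0 to 3 without 1 rat. They were 0 in every other alternative run, among them shorter and longer tiles, 5 or more cytosines, the log2 odds scale, array weights and averaged strands. Called cytosines numbered 4, against 110 with no range filter, 132 with the 7 seizure rats alone, 2 with averaged strands, 1 on the log2 odds scale, 2 with the replicate block and 2 to 41 without 1 rat. Sham tiles called were 0 to 13 without 1 rat, the highest without kindling sham rat 1, and tiles whose difference differed between seizure and sham rats were 0 to 7 without 1 rat and 2 with the replicate block. The difference in mean level was -0.0442 to 0.269 points without 1 rat, and below 0 without kindling seizure rat 2 (-0.0246) and rat 4 (-0.0442). The cause of these changes was not tested. The named tiles kept their direction in 584 of 584 refits, with 5 now past the threshold. They were chosen on this difference, and the 2 seizure groups overlapped in none, so leaving out 1 rat could not turn the direction. Called promoters were 0 in all 13 alternatives. The replicate block rests on numbers that do not pair the rats, and 0 of 3 pairs correlated best with their own number. Differences under about 4.37 points in a tile and 8.53 points at a cytosine were mostly below what 3 against 4 rats can show. These are the median reach of the confidence intervals to either side, which are not adjusted for the number of tests. A call required more, and a tile that differed by 33.4 points was not called.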
